A study of Mus musculus with 4 samples.

Results

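The peaks described here are the maxima of Isl1-Lhx3 binding that lay within 1 kb of an annotated transcription start in mouse embryonic stem cells differentiating under retinoic acid. They were chosen by position alone: from the deposited ChIP-seq peak list (ChIP-seq sequences the DNA that an antibody pulls down with a bound protein), a peak was kept where the base of highest signal, its maximum, lay within 1 kb of the start of any transcript in GENCODE release M1. This held for 224 of 2454 nuclear peaks, in 209 of 2301 bound regions. The cells were iMN-ESCs, made from the A172LoxP mouse embryonic stem cell line, which carry an inducible transgene for a Flag-tagged protein that joins Isl1 to Lhx3, and the antibody was against the Flag tag. All libraries came from cells with the transgene. Embryoid bodies received retinoic acid at 0.5 µM for 2 days and then for 4 more days either with doxycycline (Dox) at 2 µg/mL to switch the transgene on (n = 2 libraries) or without Dox (n = 2 libraries), and all received LIF at 1000 units/mL for the last 16 hours. The list gives each peak a single ChIP score, background score and tag count and no value per library, so every comparison below is between peaks of the list and none measures the spread between libraries. A fused, tagged and transgene-driven protein in a single cell line is what was mapped, not the endogenous factors.

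Motor neuron development depends on a complex that contains the LIM-homeodomain factors Isl1 and Lhx3, and homeodomains of this class are known to bind A/T-rich sites with a TAAT core. Promoters are the stretches around transcription starts where general factors and RNA polymerase assemble. Many vertebrate promoters are rich in CpG and in GC boxes bound by SP and KLF factors, whereas cell-type-specific homeodomain factors are often found at distal enhancers. LIF signals through JAK kinases to STAT3, whose dimers bind an inverted repeat of TTC and GAA.

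The promoter-proximal peaks differed in whether they held the LIM-homeodomain core, taken here as TAATTA. The 8 highest-scoring peaks that held it and whose 100 bp lay outside annotated exons are printed first, to show how the core sits beside a start. Positions are on mm9. Rasl11a is shown at chr5:147656004-147656103 (plus strand), Pax6 at chr2:105518070-105518169 (plus), Neat1 at chr19:5846033-5846132 (minus), Adamts10 at chr17:33661985-33662084 (plus), Tuba1b at chr15:98765939-98766038 (minus), Zfp3 at chr11:70577128-70577227 (plus), Tmeff1 at chr4:48599245-48599344 (plus) and Gm12676 at chr4:97424953-97425052 (minus). Each is the 100 bp centred on the maximum, 5′ to 3′ on the strand of the nearest start, with TAATTA in capitals.
Rasl11a: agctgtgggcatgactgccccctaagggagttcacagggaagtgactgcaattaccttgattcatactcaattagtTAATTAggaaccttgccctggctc
Pax6: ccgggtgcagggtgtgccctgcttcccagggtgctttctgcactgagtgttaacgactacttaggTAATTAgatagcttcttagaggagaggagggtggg
Neat1: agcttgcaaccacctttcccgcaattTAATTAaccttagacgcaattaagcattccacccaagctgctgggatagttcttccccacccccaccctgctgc
Adamts10: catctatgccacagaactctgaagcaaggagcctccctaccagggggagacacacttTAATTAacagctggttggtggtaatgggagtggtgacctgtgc
Tuba1b: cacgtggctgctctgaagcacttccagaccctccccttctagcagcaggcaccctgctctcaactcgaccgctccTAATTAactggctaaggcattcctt
Zfp3: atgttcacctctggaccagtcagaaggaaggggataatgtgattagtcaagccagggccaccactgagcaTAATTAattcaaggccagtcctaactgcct
Tmeff1: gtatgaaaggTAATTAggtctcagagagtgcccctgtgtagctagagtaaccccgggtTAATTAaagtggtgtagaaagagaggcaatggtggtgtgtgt
Gm12676: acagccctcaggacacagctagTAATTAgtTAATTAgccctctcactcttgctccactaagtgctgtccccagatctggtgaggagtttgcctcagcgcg
Tmeff1 and Gm12676 each held 2 copies in 100 bp, and the other 6 held 1.

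Some of the highest-scoring promoter peaks lacked the core. The 4 strongest of these that met the same conditions follow, with each ATTA or TAAT in capitals, because they show high scores beside 1 or 2 separate copies of these. In Gm13415 the TAAT is part of TAATTG, the other strand of CAATTA, which is described below. Gm13415 is shown at chr2:24297491-24297590 (plus strand), Mcf2 at chrX:57400897-57400996 (minus), 9530008L14Rik at chr13:41943180-41943279 (minus) and Tbc1d14 at chr5:36916148-36916247 (minus).
Gm13415: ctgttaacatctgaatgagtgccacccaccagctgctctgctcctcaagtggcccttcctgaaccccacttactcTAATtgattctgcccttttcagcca
Mcf2: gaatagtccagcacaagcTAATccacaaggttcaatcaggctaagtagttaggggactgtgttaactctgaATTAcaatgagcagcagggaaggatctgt
9530008L14Rik: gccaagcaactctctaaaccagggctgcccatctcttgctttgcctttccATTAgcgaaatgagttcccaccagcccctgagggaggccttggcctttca
Tbc1d14: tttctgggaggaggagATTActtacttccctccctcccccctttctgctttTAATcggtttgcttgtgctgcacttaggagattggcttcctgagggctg

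A pair of further motifs was found in small groups of promoter peaks, and the 30 bp around each match is given for all of their carriers. Of the promoter peaks, 5 held TGACGTCA, the full site of the CREB and ATF family, in capitals here: Neat1 at chr19:5846005-5846034 (minus strand), Nf1 at chr11:79152999-79153028 (plus), Vrk3 at chr7:52003746-52003775 (plus), Pdcl3 at chr1:39044446-39044475 (plus) and Gm17547 at chr13:83869366-83869395 (minus).
Neat1: gctgcccgcacTGACGTCAccctgcgagca
Nf1: gaggagttaggTGACGTCAcctccaggagg
Vrk3: ttcatcaagatTGACGTCAgacatgcgcag
Pdcl3: catggcccgaaTGACGTCAccctatagtcc
Gm17547: gtcacgtccatTGACGTCAgctccctgtct
Another 4 peaks held the strict STAT site TTCCNGGAA, in capitals here: C330002G04Rik at chr19:23150530-23150559 (minus strand), Tph2 at chr10:114612801-114612830 (minus), SNORA61 at chr13:44933063-44933092 (minus) and Rrm2 at chr12:25392561-25392590 (plus).
C330002G04Rik: tgaaaggagtgTTCCTGGAAagatagagct
Tph2: tctctcttgcaTTCCTGGAAaaggtgcagg
SNORA61: cagagctgagtTTCCAGGAAagctaaagcc
Rrm2: tcctgtgagcTTCCTGGAAtttgtaatcgt
None of these 4 peaks held TAATTA in 200 bp. Of all promoter peaks, 71 of 224 (31.7%) held it, so most lacked it. Whether the strict STAT site and TAATTA avoid each other cannot be read from 4 peaks and was not tested. Rrm2 encodes a subunit of ribonucleotide reductase and Tph2 the neuronal tryptophan hydroxylase.

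Maxima were densest right at the start and mostly upstream of it. Per megabase of known sequence, there were 3.82 maxima (95% Poisson interval 2.85 to 5.03, 51 peaks) within 100 bp of a start and 2.86 (2.12 to 3.79, 49 peaks) at 101 to 250 bp. The density was 1.85 (1.37 to 2.45, 49 peaks) at 251 to 500 bp and 1.52 (1.20 to 1.91, 75 peaks) at 501 to 1000 bp. Outside that distance it was 1.47 (1.23 to 1.74) up to 2 kb and 0.44 (0.387 to 0.499) beyond 100 kb. The whole band within 1 kb covered 4.15% of known bases and held 2.11 maxima per Mb (1.84 to 2.40), against 0.909 (0.872 to 0.948) farther away. The bands within 250 bp had intervals clear of that for 1 to 2 kb, while the intervals from 251 bp to 2 kb overlapped. Of the 224 maxima, 152 lay upstream of the nearest start and 72 at or downstream of it, which gave 2.92 per Mb (2.47 to 3.42) upstream and 1.33 (1.04 to 1.68) downstream. The median distance was 298 bp. Just inside the limit were the peaks at Spp1 (996 bp upstream, ChIP score 43.09) and Epb4.9 (998 bp downstream, 40.15), and just outside it those at Arid5b (1001 bp upstream, 31.05) and Dennd1a (1003 bp upstream, 35.33).

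**Figure D1:**
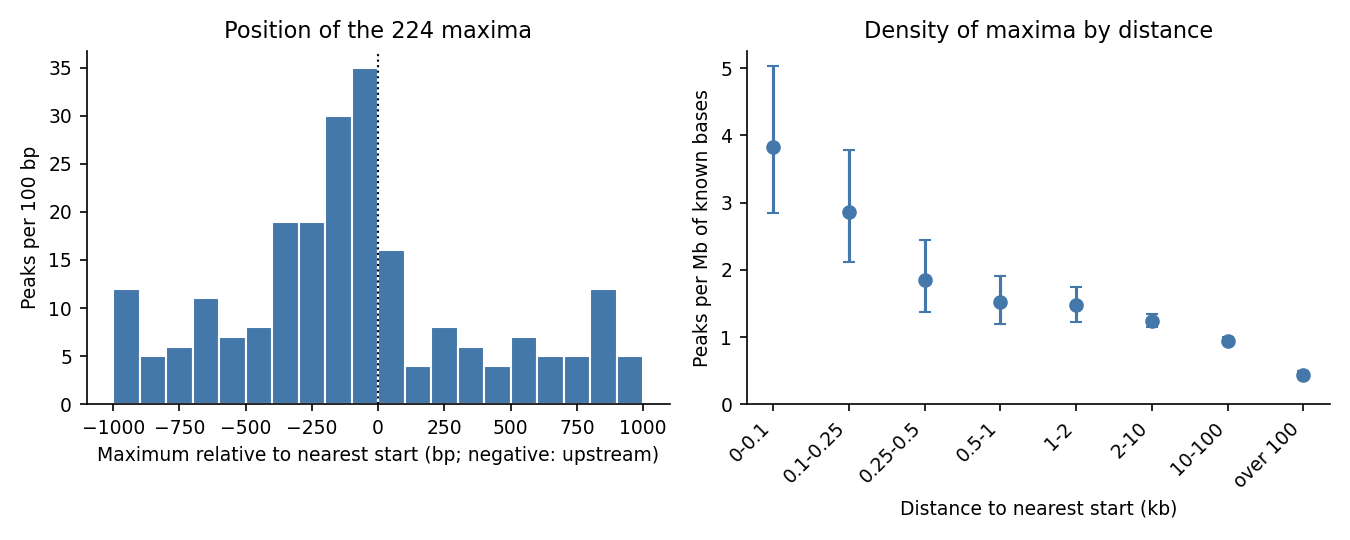
Left, number of promoter-proximal maxima in steps of 100 bp from the nearest annotated start (negative is upstream); the counts are highest just upstream of the start. Right, maxima per megabase of known bases by distance to the nearest start, with 95% Poisson intervals; the density falls from 3.82 within 100 bp to 0.44 beyond 100 kb.

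Some of the starts involved were not the 5′ end of their gene. The share of internal starts among all annotated starts was not computed, so no preference for them can be read from these counts. In 138 peaks the nearest start lay within 100 bp of the 5′ end of its gene record, and in 86 (38.4%, exact binomial 95% interval 32.0 to 45.1%) it was an internal, alternative start farther in; at peaks over 1 kb away the nearest start was internal in 27.2% (25.4 to 29.1%). The nearest gene was protein-coding for 176 peaks, a long intergenic noncoding RNA (lincRNA) for 22, a processed transcript for 11, a miRNA for 7, a small nuclear RNA for 3, a small nucleolar RNA for 3 and a pseudogene for 2. It was protein-coding for 78.6% of promoter peaks and 68.0% of the others, a lincRNA for 9.82% and 4.80%, and a pseudogene for 0.893% and 6.91%. Introns held 107 of the maxima, intergenic sequence 85, untranslated regions 17, noncoding exons 10 and coding exons 5. Introns thus held 47.8% of promoter maxima and 45.1% of the others, intergenic sequence 37.9% and 52.1%, and untranslated regions 7.59% and 1.17%. The shares of gene types and of these positions were not tested. In all, 11 peaks had starts of a divergent pair of genes within 1 kb, 17 were within 1 kb of the starts of 2 genes and 1 of 3. Of 37273 annotated genes, 228 had a start within 1 kb of a maximum (0.612%), and of 22367 protein-coding genes 177 did (0.791%). Counted at gene 5′ ends alone, 21 of 1273 lincRNA genes had a maximum within 1 kb (1.65%, 1.02 to 2.51%), against 107 of 22362 protein-coding genes (0.478%, 0.392 to 0.578%) and 8 of 1577 miRNA genes (0.507%, 0.219 to 0.997%). These shares were not tested against each other. Background scores of at least 10% of the ChIP score occurred in 6 of 48 promoter peaks whose nearest gene was not protein-coding (12.5%, 4.73 to 25.2%). At protein-coding genes they occurred in 5 of 176 (2.84%, 0.929 to 6.50%), and this difference was not tested either.

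Most promoter peaks, 164 of 224, had a CpG-poor nearest start. A start was called CpG-rich when the 250 bp before to 50 bp after it had an observed to expected CpG ratio of at least 0.6 and at least 50% G and C. By this measure 60 of 224 peaks (26.8%, 21.1 to 33.1%) had a CpG-rich nearest start, while 34.6% of 86837 distinct annotated starts were CpG-rich. Among the peaks at gene 5′ ends the share was 37.0% (28.9 to 45.6%), and among those at internal starts it was 10.5% (4.90 to 18.9%). Seen from the genes, 60 of 10790 CpG-rich 5′ ends had a maximum within 1 kb (0.556%, 0.425 to 0.715%) and 93 of 26478 CpG-poor ones did (0.351%, 0.284 to 0.430%). The CpG-rich share of all 224 peaks was thus below that of all annotated starts. The count per gene used gene 5′ ends only, and there a maximum was not less frequent at CpG-rich ends. The counts by peak and by gene rest on different sets of starts, and neither was tested.

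The strength of promoter peaks was close to that of the rest of the list. The ChIP score, the authors' value with no stated scale, had a median of 41.75 (quartiles 33.99 and 51.99, range 29.98 to 177.18) at the 224 promoter peaks and 40.95 (34.26 and 54.07, range 29.98 to 321.18) at the 2230 others. It was above the median of the list in 119 promoter peaks (53.1%) and in 49.4% of the others, with an odds ratio of 1.16 (95% interval 0.873 to 1.54, two-sided p = 0.294 by Fisher's exact test, 0.588 after adjustment). The median tag count per region was 31 in both sets. None of the 10 highest scores and 9 of the 100 highest belonged to promoter peaks. The latter was close to their share of the whole list, 224 of 2454 peaks. The background score reached 10% of the ChIP score or more in 11 promoter peaks (4.91%) and in 5.47% of the others (odds ratio 0.892, 0.427 to 1.69, Fisher's exact test p = 0.877, adjusted p = 1.0). The intervals of both odds ratios include 1 and are wide.

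The highest-scoring promoter peak lay 815 bp upstream of an internal start of Gm13415, an antisense gene in the Pax8 locus (chr2:24297291-24297790), and had 172 tags (score 177.18, background 5.62). The second lay 69 bp upstream of an internal start of Mcf2 (score 167.55, background 5.49, 128 tags). The third lay 594 bp upstream of the 5′ end of Rasl11a, a small GTPase of the Ras family (score 146.94, background 2.17, 109 tags), with its TAATTA centred 29 bp from the maximum. Next came Lpar6, a lysophosphatidic acid receptor gene inside an intron of Rb1 (118.03, 25 bp upstream), and Pax6, a homeodomain regulator of neural progenitors (117.5, 429 bp upstream of an internal start). Trex1, a DNA exonuclease, followed at 114.82, then 9530008L14Rik at 110.81, Tbc1d14 at 110.0 and Ldlrad3 at 105.99. The list of 15 was completed by Gm11019 (99.3), Pibf1 (98.23), Gm10544 in the protocadherin alpha cluster (96.89), Neat1, the noncoding RNA scaffold of paraspeckles (88.06), Alkbh5, an RNA demethylase (85.11), and Lix1 (85.11), with which Sorbs2 was tied. Of these 15 without Sorbs2, 8 were at internal starts (9 of 16 with Sorbs2), 9 lay in introns, 3 had a CpG-rich start and 5 held TAATTA in 200 bp.

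**Figure D2:**
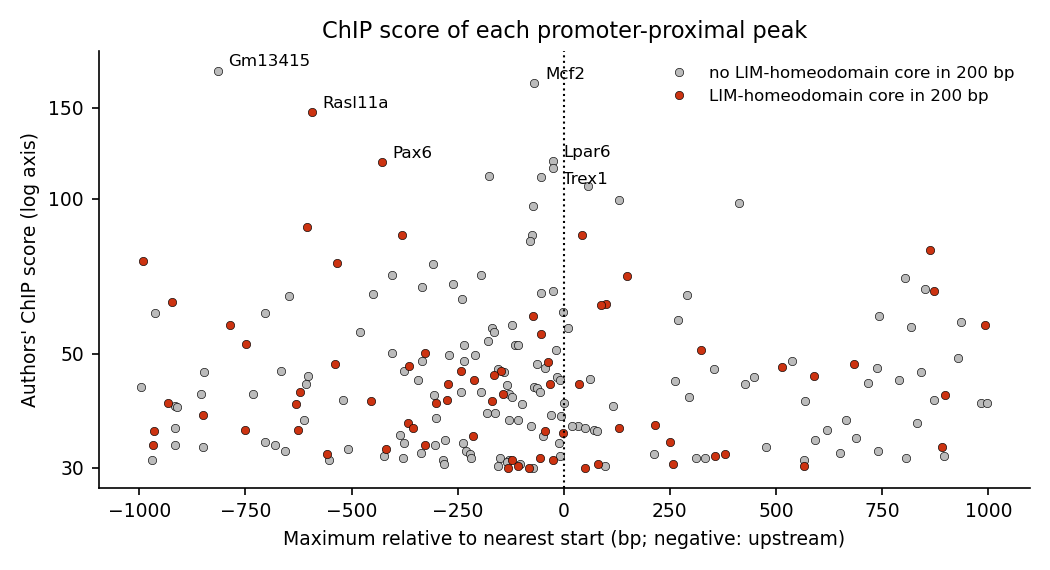
ChIP score (log axis) of each promoter-proximal peak against the position of its maximum relative to the nearest start; red points hold TAATTA, the LIM-homeodomain core, within 200 bp. High scores occurred on both sides of the start and with and without the core, and the 6 highest are named.

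Several promoters held more than 1 maximum. Bcl2l1, which encodes the anti-apoptotic protein Bcl-xL, had 3, at 476, 568 and 688 bp downstream of an internal start, with scores of 32.92, 40.42 and 34.26. The 2 maxima of Ldlrad3 differed in height, with a score of 105.99 at 56 bp downstream of an internal start and 46.3 at 148 bp upstream of it; the lower one had TAATTA 6 bp from the maximum and the higher one had none in 200 bp. Rasl11a had a second maximum 386 bp upstream with a score of 34.79, against 146.94 for the first. In all, 14 nearest genes had 2 or more promoter peaks, 31 peaks shared their region with another maximum, and 51 (22.8%) had another peak of the list within 10 kb. The share in a region with several maxima was 13.8% (9.60 to 19.1%) at promoter peaks and 11.5% (10.2 to 12.9%) at the others. The share with a neighbour within 10 kb was not computed for the others. Maxima of 1 region share its tag count, so they are not independent sites.

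No difference in TAATTA between promoter peaks and the rest was detected, and at promoter peaks it was more frequent than in their flanks. It occurred in the 200 bp at the maximum of 71 of 224 promoter peaks (31.7%, 25.7 to 38.2%) and of 768 of 2230 others (34.4%, 32.5 to 36.5%); by Fisher's exact test the odds ratio was 0.883 (0.648 to 1.20, p = 0.46, adjusted over 23 motifs p = 0.661). In the 200 bp windows 1 kb to each side of the same promoter peaks it occurred in 28 of 448 (6.25%), and the odds ratio was 6.94 (interval 4.24 to 11.6, adjusted p = 5.69e-16 by Fisher's exact test). That test counted all windows as independent, although peaks and flanks were paired by locus and some maxima shared a region. At all annotated starts, 2.37% of windows of the same length held TAATTA. Where a core was found within 250 bp, its median distance from the maximum was 38 bp at 85 promoter peaks and 31 bp at 937 others. The share was 29.4% in peaks within 100 bp of a start, 28.6% at 101 to 250 bp, 32.7% at 251 to 500 bp and 34.7% at 501 to 1000 bp, with overlapping intervals. The shorter ATTA occurred in 203 promoter peaks (90.6%), in 94.5% of the others and in 61.6% of the flanks, so 21 promoter peaks held no TAAT core at all in 200 bp. Against the other peaks its odds ratio was 0.56 (0.341 to 0.958, adjusted p = 0.0887 by Fisher's exact test), and it passed the threshold as lower at gene 5′ ends (adjusted p = 0.0373) and in 500 bp windows (adjusted p = 0.0243). The score did not order the peaks by the core: its median was 41.49 in the 71 with TAATTA and 42.02 in the 153 without.

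The share of TAATTA ranged from 29.7% to 35.4% over the kinds of promoter peak. At CpG-rich starts 19 of 60 peaks held it (31.7%) and at CpG-poor starts 52 of 164 (31.7%), so that the odds ratio was 0.998 (interval 0.497 to 1.96, p = 1.0 by Fisher's exact test). In the 50% of the list with the highest scores the same comparison gave 14 of 28 against 22 of 91. There the odds ratio was 3.10 (interval 1.17 to 8.29, p = 0.0172 by Fisher's exact test, 0.0345 after adjustment over 4 tests). This comparison passed the threshold in none of the other alternatives, and whether it depended on the score range was not tested. The share was 29.7% at gene 5′ ends and 34.9% at internal starts, 31.6% upstream and 31.9% downstream of the start, and 30.7% at protein-coding and 35.4% at other genes. All of these intervals overlap, and these splits were not tested.

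**Figure D3:**
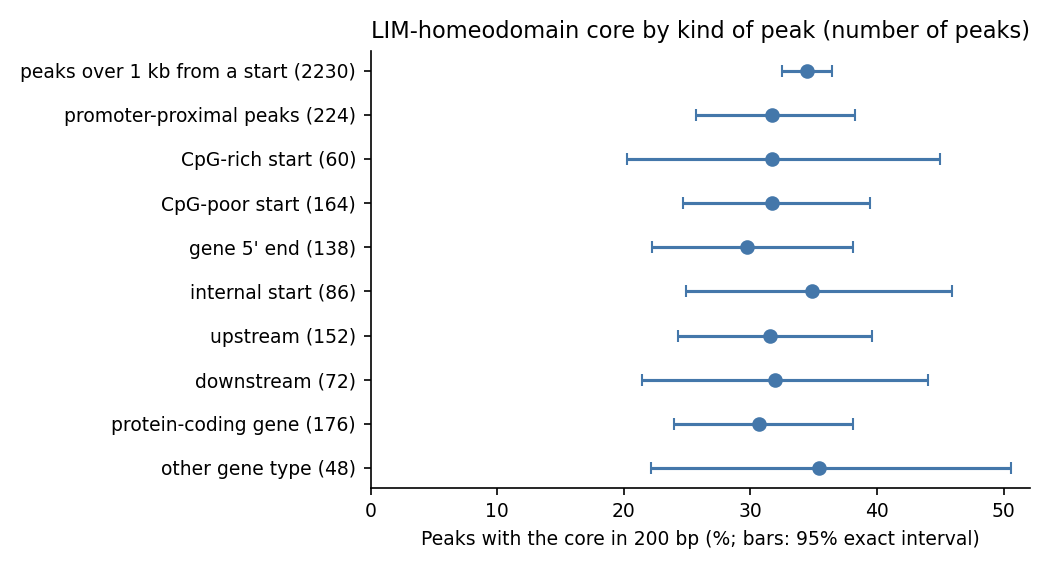
Share of peaks with TAATTA, the LIM-homeodomain core, in the 200 bp at the maximum, with exact binomial 95% intervals, for peaks over 1 kb from a start, all promoter-proximal peaks and 8 subsets of them (number of peaks in parentheses). The subsets range from 29.7% to 35.4%, and all intervals overlap.

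Other motifs did separate the promoter peaks from the rest. The 23 motifs, searched on both strands in 200 bp, were TAATTA, the shorter ATTA, the A/T controls AATATT and TTATAA and also TTTAAA, the POU octamer ATGCAAAT, the relaxed and strict STAT sites TTCNNNGAA and TTCCNGGAA, the E-boxes CAGCTG and CACGTG, the SOX site ATTGTT, the Onecut site ATTGAT, the CCAAT box, the GC box GGGCGG, the ETS site CCGGAAG, the CREB and ATF site TGACGTCA, the NRF1 half-site GCGCATGC, the YY1 core AAGATGG, the TATA box TATAAA, the nuclear receptor half-site TGACCT, and ATTA with TAAT after 3 or 10 bases and TAAT with TAAT after 5 bases. TAATTA contains ATTA, and the strict STAT site is a form of the relaxed one. Against the other peaks, 2 of 23 motifs (8.7%) were more frequent and 2 (8.7%) less frequent at an adjusted p under 0.05. The GC box was found in 50 promoter peaks (22.3%, 17.0 to 28.3%), in 6.59% of the others and in 8.93% of the flanks (odds ratio against the others 4.07, 2.79 to 5.87, Fisher's exact test, adjusted p = 2.95e-11). At all annotated starts its share was 29.7%, so it was between that of promoters and that of distal peaks. Mean GC content of the 200 bp was 51.2 ± 6.80% (SD over 224 peaks) at promoter peaks and 47.9 ± 5.04% at the others, and the part of base composition in the GC box difference was not tested. The GC box occurred in 36.7% (24.6 to 50.1%) of the peaks at CpG-rich starts and in 17.1% (11.7 to 23.7%) of those at CpG-poor starts.

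TGACGTCA was found in 5 promoter peaks (2.23%), 7 of 2230 others (0.314%) and 0 of 448 flanks (odds ratio against the others 7.24, 1.80 to 26.7, Fisher's exact test, adjusted p = 0.0323). Its share at all starts was 1.31%, and 4 of the 5 carriers had a CpG-rich start. These carriers, whose sites are printed above, ranged in score from 29.98 at Gm17547 to 88.06 at Neat1. Neat1 and Gm17547 also held TAATTA, and the other 3 did not. Nf1 (score 41.22) encodes the Ras regulator neurofibromin, and Vrk3 (40.15) has a divergent start of the zinc-finger gene Zfp473 within 1 kb.

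The 2 less frequent motifs were A/T-rich, and the part of base composition in their differences was not tested. At all annotated starts, 7.36% of windows held TATAAA and 0.464% held TAAT with TAAT after 5 bases. TATAAA was present in 5 promoter peaks (2.23%), in 6.77% of the others and in 9.82% of the flanks (odds ratio against the others 0.314, 0.0996 to 0.762, Fisher's exact test, adjusted p = 0.0441). TAAT followed by TAAT after 5 bases was in 5 promoter peaks (2.23%) and in 6.41% of the others (odds ratio 0.333, 0.105 to 0.809, Fisher's exact test, adjusted p = 0.0453), with 0.893% in the flanks. ATTA with TAAT after 3 bases gave 1.79% against 5.29%, which did not pass the adjustment (Fisher's exact test, adjusted p = 0.0887). A spacing of 10 bases gave 2.23% against 3.004%. These calls rest on 5 peaks each. By Fisher's exact test over 5 other settings (other distances, start sets, comparison peaks, windows and 1 peak per region), the adjusted p of TGACGTCA ranged from 9.19e-05 to 0.0523 and that of TATAAA from 0.0202 to 0.233. That of the TAAT repeat was 0.0514 to 0.233, above the threshold in all 5. The GC box had an adjusted p of 1.67e-09 or less in each.

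STAT sites were not distinguishable between the sets at this number of peaks. The relaxed site was in 14 promoter peaks (6.25%, 3.46 to 10.3%) and 4.84% of the others (odds ratio 1.31, 0.681 to 2.35, adjusted p = 0.513 by Fisher's exact test), with 3.79% in the flanks and 4.89% at all starts. The strict site was in 4 promoter peaks (1.79%) and 0.628% of the others (odds ratio 2.88, 0.683 to 9.26, adjusted p = 0.156 by Fisher's exact test). These intervals are wide.

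Compared with their own flanks, the promoter peaks held 8 of 23 motifs more often (34.8%) and 2 less often (8.7%). These tests did not use the pairing of each peak with its own flanks. Beside TAATTA, the shorter ATTA, the GC box and TGACGTCA, the motifs that were higher were CCAAT (33.5% against 22.99%, Fisher's exact test, adjusted p = 0.0157), ATTGAT (12.1% against 5.80%, adjusted p = 0.02), ATGCAAAT (4.02% against 1.12%, adjusted p = 0.0452) and ATTA with TAAT after 10 bases (2.23% against 0.223%, adjusted p = 0.0445). By Fisher's exact test, TTATAA (1.79% against 6.25%, adjusted p = 0.0325) and TATAAA (adjusted p = 0.00124) were lower. The CCAAT box and the sites ATTGAT and ATGCAAAT had shares within 2 percentage points of those at the other peaks.

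**Figure D4:**
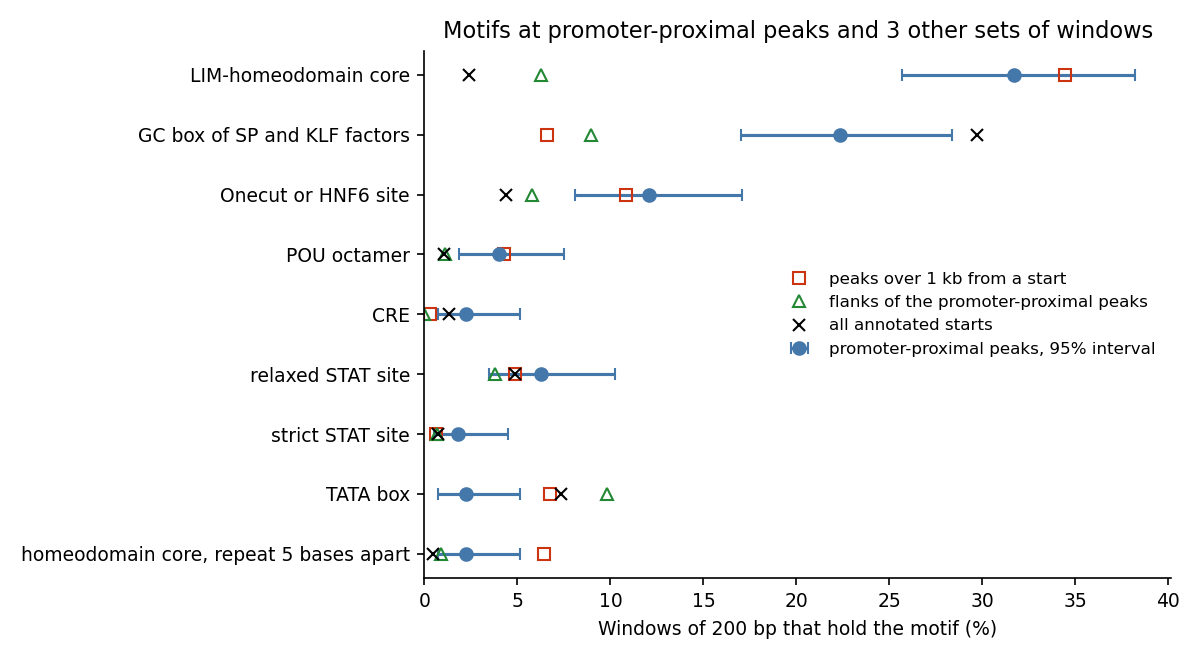
Share of 200 bp windows holding each of 9 motifs at the promoter-proximal peaks (points with exact binomial 95% intervals), at peaks over 1 kb from a start (squares), at the flanks 1 kb from the promoter-proximal maxima (triangles) and at all annotated starts (crosses). The LIM-homeodomain core sits with the other peaks, far above flanks and starts, whereas the GC box lies between other peaks and all starts.

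TAATTA also led a search of all 2080 6-mers, with both strands merged. Against the flanks 52 6-mers were more frequent (2.5%) and 41 less frequent (1.97%), and TAATTA had the smallest p. Of the 52, 18 contained ATTA or TAAT, as did 48 of all 2080. AATTAG was in 31.7% of promoter peaks and 7.81% of flanks, CAATTA in 23.2% and 5.13%, and CACTTA in 21.0% and 6.25%. Against the other peaks 93 6-mers were more frequent (4.47%) and 8 less frequent (0.385%), and 86 of the 93 contained the dinucleotide CG, as did 604 of all 2080. Neither comparison is of single independent words, since 6-mers overlap, and the one with the flanks did not use their pairing with the peaks.

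Among the genes of motor neuron development, Pax6 and Neurog2 had promoter peaks. Of 23 motor neuron transcription factors 2 (8.70%) had a start within 1 kb of a maximum, against 0.612% of all genes. Neurog2, a proneural basic helix-loop-helix factor of motor neuron progenitors, had 2 maxima in its coding exon at 850 and 936 bp downstream of the start (chr3:127336655-127337154 and chr3:127336741-127337240), with scores of 66.64 and 57.54, background scores of 0 and 158 tags in the shared region; neither held TAATTA in 200 bp. Isl1, Lhx3 and the motor neuron factor Mnx1 had no maximum within 1 kb, and the nearest maxima assigned to their protein-coding starts lay 6.44 kb downstream, 11.8 kb downstream and 6.75 kb upstream. Chat, which makes acetylcholine, had none (nearest 22.05 kb downstream), nor had the LIF receptor gene Lifr (13.8 kb upstream), and no peak of the list had a start of Stat3 as its nearest protein-coding start. Among 12 matched cholinergic genes 1 had a promoter peak, the synaptic vesicle transporter Slc10a4 (64 bp upstream, score 42.82). Among 37 axon guidance genes it was Slit3, which encodes a secreted repellent (74.67); the peak lay 309 bp upstream of an internal start of a processed transcript, not at a protein-coding start of the gene. Among 31 genes of the neuronal cytoskeleton and adhesion there were 2, Tuba1b, an alpha tubulin (992 bp upstream, 75.74), and Mtap1b, the older symbol of microtubule-associated Map1b (787 bp upstream of an internal start, 56.74). Both held TAATTA.

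The other gene groups had between 0 and 5 members with a promoter peak. One of 23 pluripotency genes, the nuclear receptor gene Esrrb (213 bp downstream of an internal start of a noncoding transcript, score 31.85), and 1 of 22 Notch pathway genes, Rbpj, the DNA-binding effector of Notch (133 bp upstream, 30.78), had a promoter peak. Of 33 chromatin regulators 2 did, the DNA methyltransferase gene Dnmt3a (50.05, at an internal start) and Arid1a of the BAF complex (39.61). Of 20 housekeeping genes 2 did, Tuba1b and Ppia (32.92, at an internal start), of 150 ribosomal protein genes Rps10 alone (55.14), and of 17 tubulin genes Tuba1b alone. Of 367 genes named Zfp, 4 did: Zfp3 (74.94), Zfp516 (48.44), Zfp382 (43.89, at an internal start) and Zfp473 (40.15). Of 353 solute carrier genes 5 did, among them the thiamine transporter Slc19a3 (62.09), the mitochondrial carrier Slc25a25 (47.64) and the metal transporter Slc39a14 (46.84), both of these carriers at internal starts. None was found among 33 genes of ion channels and synapse, 30 of the JAK-STAT pathway, 19 of the retinoic acid pathway, 28 of the cell cycle, 16 of blood, 16 of skeletal muscle, 18 of endoderm and liver, 67 of the Hist clusters, 39 Hox genes, 40 proteasome subunits, 87 mitochondrial respiratory subunits, 29 hnRNP and SR proteins and 94 potassium channels. These counts of 0 to 5 genes were read beside the 0.612% of all genes and 0.791% of protein-coding genes with such a peak, and no list was tested against them.

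A few regulators outside these lists had promoter peaks and were singled out after their values were seen. Tcf7l1, a repressor in Wnt signalling, had a peak 804 bp downstream of an internal start (score 70.12), and Id2, an inhibitor of basic helix-loop-helix factors, 749 bp upstream (52.19). The homeobox genes Gbx2 (703 bp upstream, 33.72) and Nkx6-3 (104 bp upstream, 30.51) had low scores without TAATTA in 200 bp. Lmo3, a LIM-only gene (35.6), and the splicing factor genes Rbfox3 (39.88) and Rbfox2 (59.15) had peaks upstream of internal starts, each with TAATTA in 200 bp.

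Peaks with the highest background were few. The 5 promoter peaks with the largest background score relative to the ChIP score were at Gm16869 (23.5%), Sfi1 (19.96%), Spns1 (14.9%), 2610020F03Rik (14.1%) and Gm5067 (13.5%). Their ChIP scores of 31.05 to 51.92 lay below the upper quartile of promoter peaks. Ranking by background relative to the ChIP score itself favours low ChIP scores, so no relation of background to peak strength can be read from this.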

How the data were processed

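Flag ChIP-seq peaks from 4 libraries (2 with Dox, 2 without) were analysed as deposited. The submitters' processing notes name the aligner BWA 0.5.8a and build mm9; peak caller, threshold, pooling of libraries and origin of the background score: not given in the sources used here. Both deposited scores per peak (ChIP and background) have no stated scale, and the deposited tag count is a whole number per region. A blank row and a mitochondrial peak were dropped. Depth per library is unknown, and the deposited values allow no spread between libraries, so p-values compare peaks of 1 list; intervals cover counting error only.

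Starts, gene types and exons came from GENCODE M1 on the same build, and sequence from the NCBIM37 genome. Motif shares in 200 bp at the maximum were compared by two-sided Fisher's exact tests (scipy 1.17.1, Python 3.11.15) with exact conditional 95% intervals, adjusted by Benjamini-Hochberg over 23 motifs, or over 4 for the tests of score, background, CpG class and TAATTA at the flanks; the last is quoted as adjusted over the 23 motifs. The threshold was 0.05. Gene shares have exact binomial (Clopper-Pearson) and densities exact Poisson intervals. The script was tested on simulated data. The peaks, the 25 gene lists and the motifs were chosen with earlier results of these data known. Slc18a3 could not be matched by symbol; 5 newer symbols were matched through synonyms in a RefSeq table.

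Genes named were the nearest genes of the 15 highest-scoring promoter peaks, up to 4 list members with a peak, those at the distance limit, the promoters with most peaks, the 5 highest background shares, and always Isl1, Lhx3, Mnx1, Chat, Stat3 and Lifr. Carriers of TGACGTCA or the strict STAT site, genes of printed sequences and a few regulators were named besides, after their values were seen. Alternatives were other distances (500 bp, 2 kb), start sets, windows (100, 500 bp), score and background filters, 1 peak per region, flanks at 2 kb, comparison peaks over 10 kb away, GC strata, CpG definitions and tags as the strength. The 6-mer search and the alternatives for counts of motifs were added after seeing the data.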

Additional observations from a re-analysis of the deposited data

How the results depend on the processing

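The difference in TAATTA between promoter peaks and other peaks was not significant in any of the 11 alternatives (odds ratio 0.722 to 0.953). The difference from the flanks was significant in all 10 (4.10 to 10.5). The number of promoter peaks was 149 within 500 bp and 356 within 2 kb. The other results changed side in some alternatives and did not pass the threshold, with the exception named next. The relaxed STAT site kept its side in 9 alternatives and changed it in 2, the score in 7 and 2, and high background in 6 and 3. TAATTA by CpG class kept its side in 4 and changed it in 7. Among those that kept it, the strict STAT site gave an odds ratio of 2.88 and a background cut-off of 20% gave 0.584. The odds ratios listed next are those that changed side. For TAATTA at CpG-rich against CpG-poor starts, the odds ratio was 3.10 in the 50% of peaks with the highest scores, which passed, 1.11 within 2 kb, 1.13 with 1 peak per region, 1.09 with background under 10% of the ChIP score, 1.37 in 100 bp, 1.02 in 500 bp and 1.04 with a CpG ratio of at least 0.75. For the relaxed STAT site it was 0.863 in 100 bp and 0.852 in 500 bp. For a score above the median it was 0.834 in the 50% with the highest scores and 0.972 with tags as the strength. For high background it was 1.18 within 2 kb, 1.11 at gene 5′ ends and 1.02 with 1 peak per region. Of the motifs other than TAATTA and the relaxed STAT site, the number more frequent than at other peaks was 1 within 500 bp, 1 against peaks over 10 kb away and 4 in 500 bp windows, instead of 2; the number less frequent was 0, 1 and 5 in these settings and 1 with 1 peak per region, instead of 2. The causes were not tested. No paired analysis was possible because the list holds no value per library, and for the same reason no library could be left out. The number of promoter peaks limits what can be seen: motifs with 5 or fewer carriers have intervals spanning more than 5-fold.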

Other observations

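A 6-mer that was not among the 23 motifs was singled out after its values were seen. CTGCGA occurred in 26 of 224 promoter peaks (11.6%), in 1.56% of their flanks (odds ratio 8.24, 3.41 to 22.9, Fisher's exact test, adjusted p = 1.55e-05 over 2080 6-mers) and in 2.20% of the other peaks (odds ratio 5.84, 3.40 to 9.82, adjusted p = 2.19e-07). By p it ranked 7 against the flanks and 4 against the other peaks. It contains CG, as did 86 of the 93 6-mers more frequent than at the other peaks. GGGCGG and CCTGCG, which overlaps it, also passed both comparisons. Its share at all annotated starts was not computed, and the part of base composition was not tested.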
